A study of Mus musculus with 6 samples.

Results

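The genes described here are the ligands, receptors, SMAD proteins, Id targets and secreted antagonists of the BMP and TGF-beta pathways in newborn mouse kidney and ureter. They were picked by gene symbol, with no measured value in the rule, though earlier results of these data were known. Of the 24532 genes in the deposited table, 57 matched. The 57 members were 3 TGF-beta ligands, 9 BMP ligands, 10 GDF ligands, 5 inhibin or activin subunits, the protease Bmp1, 7 type I receptors, 4 type II receptors, the co-receptor Tgfbr3, 8 SMADs, 4 Id genes and 5 secreted antagonists.

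Bulk RNA-seq was carried out on tissue from mice at postnatal day 1 (PN1), and each tissue was sampled from Ahnak KO and WT mice, with 2 libraries per genotype for kidney and 1 per genotype for ureter. Exon 5 of Ahnak, which codes for a very large scaffold protein, was disrupted in the KO mice, and no tissue-limited driver was named. The strain was not given in the sources used here. Between 2 and 4 organs were collected for RNA according to the methods, which do not say how many went into a library. The sample titles call the ureter samples kidney, so tissue was taken from the source name. The methods speak of biological replicates, but nothing ties a library to 1 animal or litter, and p-values therefore measure only the spread between these samples, which may be technical.

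TGF-beta family ligands are secreted dimers that bring type I and type II receptor kinases together at the cell surface. BMP-type receptors pass the signal to Smad1, Smad5 and Smad9, TGF-beta and activin receptors pass it to Smad2 and Smad3, and both groups enter the nucleus with Smad4. Id genes are classic targets of the BMP branch, Smad6 and Smad7 feed back to shut the pathway off, and secreted antagonists hold ligands away from receptors. In the urinary tract, Bmp7 keeps nephron progenitors alive, Grem1 is needed for ureteric bud outgrowth, and Bmp4 from the mesenchyme around the ureter takes part in smooth muscle formation.

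The libraries held 36410246 to 66095616 estimated counts. Markers of smooth muscle summed to 505 to 618 TPM (a level corrected for gene length and library size) in kidneys and to 5844 and 4458 TPM in the WT and Ahnak KO ureters, and markers of urothelium summed to 116 to 135 TPM in kidneys against 10350 and 10430 TPM in ureters. Proximal tubule markers summed to 854 to 1301 TPM in kidneys and to 3.27 and 2.44 TPM in ureters, where Slc34a1, Slc5a2, Slc5a12 and Slc22a6 were at 0, so the markers matched the labelled tissues. Ahnak was counted in every library, at 24.7 and 27.7 TPM in WT kidneys, 20.6 and 22.2 TPM in Ahnak KO kidneys, 77.5 TPM in WT ureter and 88.0 TPM in Ahnak KO ureter. On TMM-scaled counts its log2 difference, Ahnak KO over WT, was -0.47 in kidneys (adjusted p = 1.0 from edgeR) and -0.19 in ureters, where TPM gave the other order, so the targeted gene settled the genotype labels in neither tissue. Ahnak KO kidney replicate 1 differed from the other 5 libraries in carrying Xist at 363 TPM with 4 Y chromosome genes at 0 counts. By these genes that library was female and the other 5 were male. Sex therefore differed between the Ahnak KO kidneys, while both WT kidneys were male. The ribosomal RNA precursor Rn45s took 8.06% of counts in the Ahnak KO ureter and 0.496% to 0.632% elsewhere.

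The upstream sequences of a few members are shown first, since Id genes are the usual readout of this pathway and Bmp5 and Acvr2b were among the members that set ureter and kidney apart. RefSeq promoter windows (GRCm38.p6) were found for 39 of the 57 members, with 47 start sites. The 250 bases before the start are printed 5′ to 3′ on the gene's own strand, and capitals mark GGCGCC, a GC-rich element that SMADs can bind, and CAGACA or its complement TGTCTG, a SMAD-binding element.
Id2 promoter (chr12:25096093-25096342, minus strand): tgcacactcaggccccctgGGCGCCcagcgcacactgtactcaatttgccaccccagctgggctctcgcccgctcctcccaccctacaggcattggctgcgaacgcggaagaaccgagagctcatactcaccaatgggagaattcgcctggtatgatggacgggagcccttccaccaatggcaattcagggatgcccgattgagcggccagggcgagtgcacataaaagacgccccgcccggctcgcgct
Id3 promoter (chr4:136143572-136143821, plus strand): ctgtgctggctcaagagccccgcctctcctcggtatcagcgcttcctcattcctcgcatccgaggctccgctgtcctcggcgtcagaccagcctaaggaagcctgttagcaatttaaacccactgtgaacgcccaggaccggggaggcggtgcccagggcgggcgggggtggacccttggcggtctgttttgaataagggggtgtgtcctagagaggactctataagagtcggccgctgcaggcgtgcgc
Id4 promoter (chr13:48260866-48261115, plus strand): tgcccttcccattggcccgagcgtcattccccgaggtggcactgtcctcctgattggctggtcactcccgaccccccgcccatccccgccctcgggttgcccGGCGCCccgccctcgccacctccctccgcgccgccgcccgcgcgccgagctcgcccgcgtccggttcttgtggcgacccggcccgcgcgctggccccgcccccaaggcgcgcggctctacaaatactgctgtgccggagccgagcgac
Bmp5 promoter (chr9:75775115-75775364, plus strand): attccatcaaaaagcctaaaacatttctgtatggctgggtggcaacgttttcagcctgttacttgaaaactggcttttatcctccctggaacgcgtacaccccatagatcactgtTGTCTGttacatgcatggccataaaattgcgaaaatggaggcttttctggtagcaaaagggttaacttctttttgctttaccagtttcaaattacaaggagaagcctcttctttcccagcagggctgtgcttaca
Acvr2b promoter (chr9:119401928-119402177, plus strand): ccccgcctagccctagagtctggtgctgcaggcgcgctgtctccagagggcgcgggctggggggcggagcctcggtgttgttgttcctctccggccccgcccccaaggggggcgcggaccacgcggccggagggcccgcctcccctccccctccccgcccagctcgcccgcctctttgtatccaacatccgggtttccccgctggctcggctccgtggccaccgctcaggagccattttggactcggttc
Id2 and Id4 each held 1 GGCGCC, Bmp5 held 1 TGTCTG, and Id3 and Acvr2b held neither. The Acvr2b window lies downstream of the first base of the gene (119401583), so it precedes an internal start site. The sequence before that first base was not examined. GGCGCC was present in 10 of 47 member windows (21.3%) and in 9.59% of all 32851 windows of that length. CAGACA or TGTCTG was present in 6 of 47 member windows (12.8%) and in 17.1% of all windows. Among the members with a window that were higher in ureter (10 windows), Id2 held GGCGCC and Bmp5 and Bmp8b held the other element. Among those higher in kidney (12 windows of 7 genes), Grem1 and Smad5 held GGCGCC and Bmpr1b held the other. These matches describe letters in the window and were not tested for binding.

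In the comparison of tissues, ureters had more RNA for Bmp2, Bmp3, Bmp5, the activin subunit Inhba, the co-receptor Tgfbr3, the antagonist Fst and the target Id1. Kidneys had more for the receptors Acvr2b and Bmpr1b and the BMP signal carrier Smad5. With both genotypes in 1 model, 53 members could be tested, and 18 were higher in ureter (34.0%, against 21.4% of the 16873 genes tested) at an adjusted p under 0.05 from edgeR's quasi-likelihood test. Another 9 were higher in kidney (17.0%, against 23.7% of all genes), and 26 did not pass. In either direction 45.0% of all genes passed. With a fold change of at least 2 required, 12 were higher in ureter and 7 in kidney, against 11.9% and 12.8% of all genes. The median log2 fold change of the members, ureter over kidney, was 0.24, beside -0.08 over all genes tested. Gdf2, Gdf3 and Inhbe were at 0 counts in all 6 libraries, and these 3 and Gdf6 were not tested. A lower level in bulk tissue can come from fewer cells of a type or from less RNA per cell, and these cannot be told apart here.

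**Figure D1:**
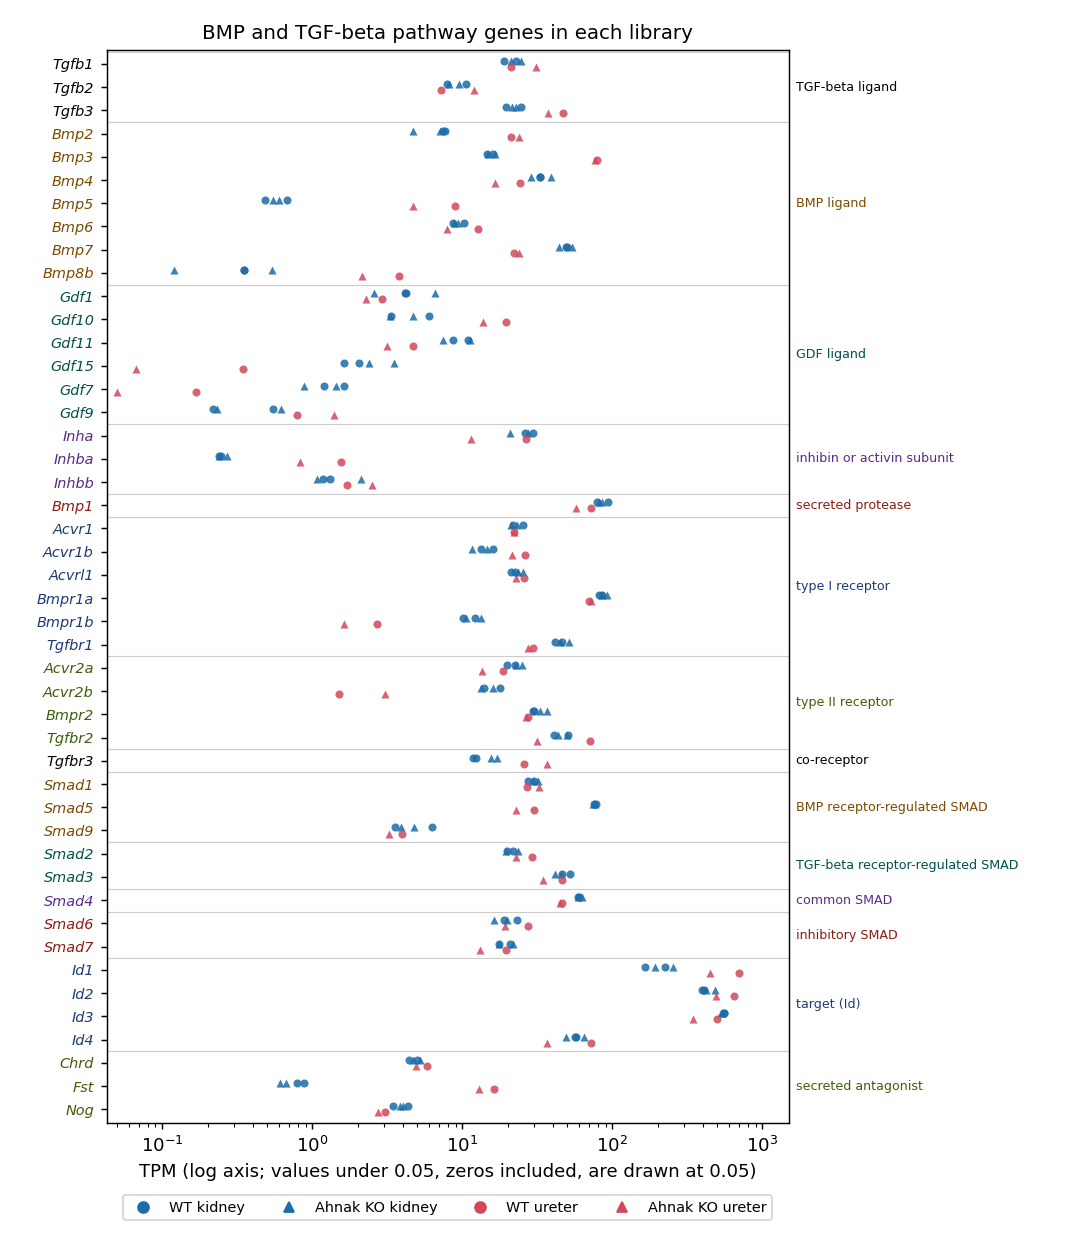
Level of 46 members with a mean of at least 1 TPM in either tissue, in each of 6 libraries, on a log axis. Blue marks kidney and red marks ureter, circles WT and triangles Ahnak KO. Id1, Id2 and Id3 sit far to the right, and Fst, Bmp5 and Acvr2b show wide gaps between the colours.

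Fold changes below come from counts scaled with TMM factors, while levels are given in TPM, and the ureter libraries sat lower on the TPM and FPKM scale. On log2(FPKM + 1) the median of all genes was -0.32 rather than -0.08. On that scale limma called 11 members higher in ureter and 10 higher in kidney, so 52.4% of calls were toward ureter instead of 66.7%. Over all genes that share moved from 47.4% to 26.9%, with 15.7% of the genes tested on the FPKM scale higher in ureter and 42.6% higher in kidney. Every member called in edgeR and tested on the FPKM scale kept its direction.

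Of the 3 TGF-beta ligands, Tgfb3 differed most between tissues. It was at 24.7 and 19.5 TPM in WT kidneys, 21.6 and 22.8 TPM in Ahnak KO kidneys, 47.2 TPM in WT ureter and 37.4 TPM in Ahnak KO ureter. Both ureters were above all 4 kidneys. It was 2.48-fold higher in ureter (log2 1.31, standard error 0.127, adjusted p = 0.00045 from edgeR). Tgfb1, the form most studied in fibrosis, was called higher in ureter with a log2 fold change of 0.62 (adjusted p = 0.0320 from edgeR), but its TPM overlapped between tissues (18.9 to 24.5 in kidneys, 20.9 and 30.9 in ureters). Tgfb2 did not pass.

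The BMP ligands were the role with the most members higher in ureter, 5 of 9, where 21.4% of all genes tested were. Bmp3, an atypical BMP that does not drive the usual BMP SMADs, was at 14.7 and 16.0 TPM in WT kidneys, 16.6 and 14.9 TPM in Ahnak KO kidneys, 78.7 TPM in WT ureter and 77.0 TPM in Ahnak KO ureter. The 2 ureters were close to each other and far above the kidneys, a 6.54-fold difference (log2 2.71, standard error 0.0883, adjusted p = 1.02e-05 from edgeR). Bmp5, a close relative of Bmp7, was at 0.681 and 0.480 TPM in WT kidneys, 0.548 and 0.601 TPM in Ahnak KO kidneys, 8.97 TPM in WT ureter and 4.72 TPM in Ahnak KO ureter. It was 14.8-fold higher in ureter (log2 3.89, standard error 0.283, adjusted p = 0.000133 from edgeR), and the lowest ureter stood well clear of the highest kidney. Bmp2, which acts through Bmpr1a and Bmpr2, was at 7.62 and 7.46 TPM in WT kidneys, 4.66 and 7.05 TPM in Ahnak KO kidneys, 21.2 TPM in WT ureter and 23.7 TPM in Ahnak KO ureter. The groups did not overlap, and ureters were 4.43-fold higher (log2 2.15, standard error 0.232, adjusted p = 0.000687 from edgeR).

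Bmp8a and Bmp8b are neighbouring genes with very similar sequence, so reads may have been split between them and both values are uncertain. Bmp8b ran from 0.119 to 0.537 TPM in kidneys and was at 3.78 TPM in WT ureter and 2.13 TPM in Ahnak KO ureter (log2 3.43, standard error 0.592, adjusted p = 0.00472 from edgeR). Bmp8a stayed under 0.1 TPM in kidneys and was at 0.897 and 0.512 TPM in the WT and Ahnak KO ureters, with an adjusted p of 0.0194 from edgeR. Both genes were higher in the 2 ureters than in any kidney.

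Bmp7, the most abundant BMP ligand in kidney, went the other way. It was at 48.9 and 49.5 TPM in WT kidneys, 54.1 and 44.4 TPM in Ahnak KO kidneys, 22.2 TPM in WT ureter and 23.8 TPM in Ahnak KO ureter. No ureter reached the lowest kidney, and on TMM-scaled counts the log2 difference was -0.71 (standard error 0.118, adjusted p = 0.00405 from edgeR). Bmp4 was at 28.5 to 38.9 TPM in kidneys and at 24.2 and 16.6 TPM in the WT and Ahnak KO ureters, and did not pass (log2 -0.34, adjusted p = 0.158 from edgeR). Bmp6 (adjusted p = 0.0603) and Bmp15 (adjusted p = 0.160) did not pass in edgeR either. The secreted protease Bmp1, which processes procollagen and releases BMPs from chordin, was at 79.5 to 93.8 TPM in kidneys and at 72.2 and 57.4 TPM in ureters, with a log2 fold change of -0.06 that did not pass.

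**Figure D2:**
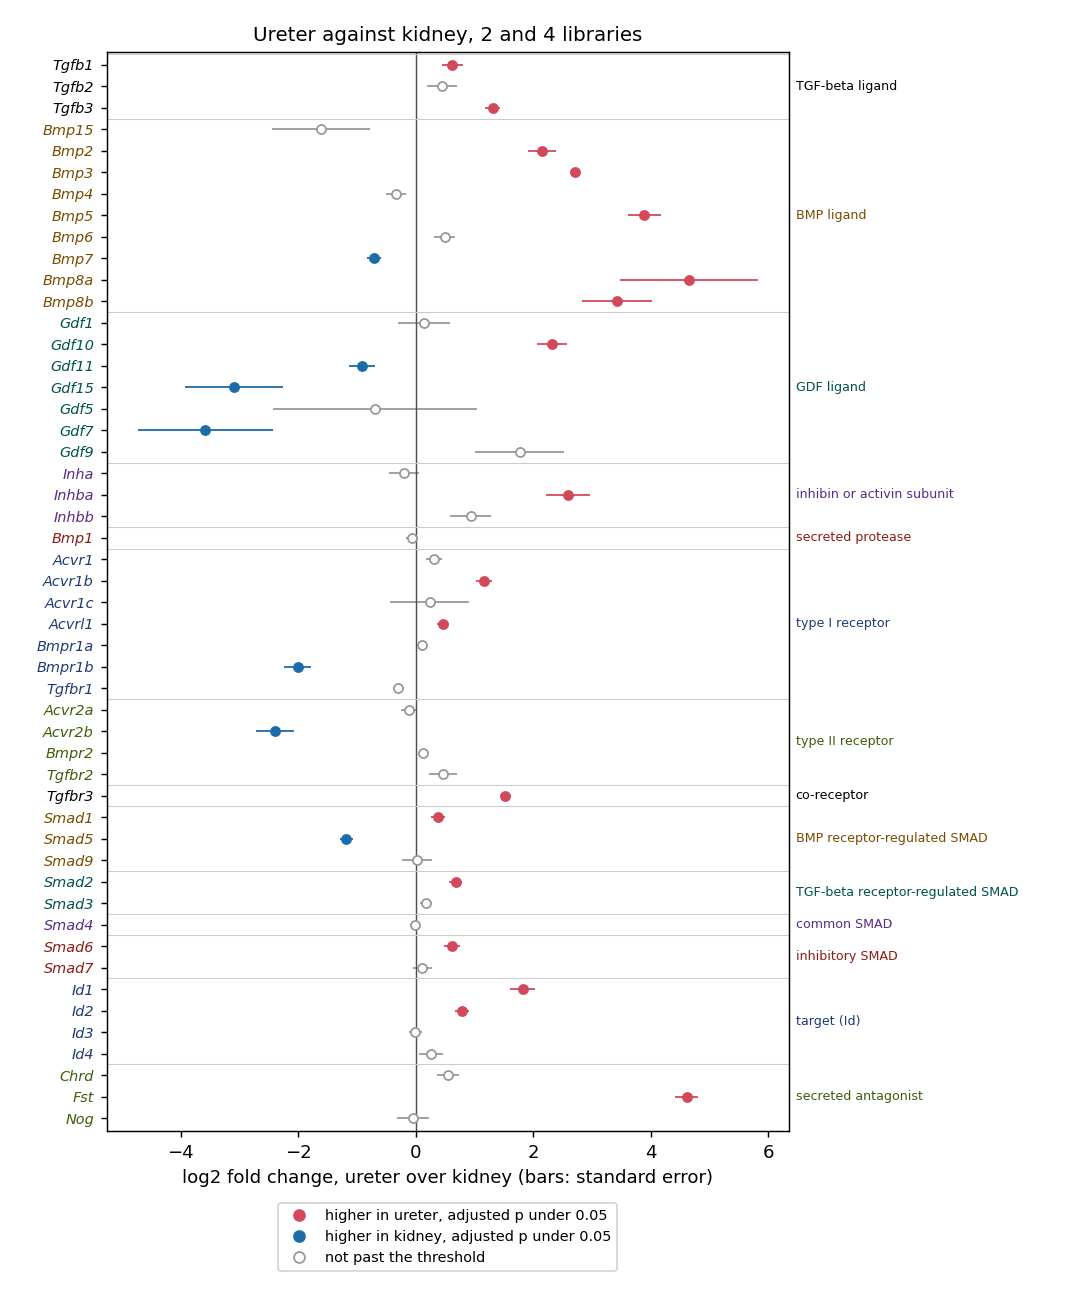
Log2 fold change of ureter over kidney for 50 tested members in order of role, with standard errors as bars. Filled points passed an adjusted p under 0.05, red where ureter was higher and blue where kidney was higher, and Grem1 and Inhbc are left out because both ureters were at 0 counts. Most of the BMP ligands lie to the right, as does the antagonist Fst, whereas Acvr2b and Bmpr1b lie to the left.

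Among GDF ligands, 1 was higher in ureter and 3 in kidney, where 21.4% and 23.7% of all genes tested were. Gdf10, also called Bmp3b after its likeness to Bmp3, was at 3.34 and 5.98 TPM in WT kidneys, 4.68 and 3.31 TPM in Ahnak KO kidneys, 19.7 TPM in WT ureter and 13.7 TPM in Ahnak KO ureter. Both ureters were higher than every kidney, by 4.98-fold in the fit (log2 2.31, standard error 0.255, adjusted p = 0.000739 from edgeR). Gdf11, a regulator of early kidney formation, was at 7.39 to 11.2 TPM in kidneys and at 4.71 and 3.15 TPM in the WT and Ahnak KO ureters (log2 -0.91, adjusted p = 0.0168 from edgeR).

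The other kidney-high GDF genes were near the limit of detection in ureter. Gdf15, a stress-responsive family member, was at 2.04 and 1.64 TPM in WT kidneys, 2.37 and 3.48 TPM in Ahnak KO kidneys, 0.347 TPM in WT ureter and 0.0666 TPM in Ahnak KO ureter. Gdf7 was at 1.20 and 1.62 TPM in WT kidneys, 0.882 and 1.44 TPM in Ahnak KO kidneys, 0.167 TPM in WT ureter and 0 in Ahnak KO ureter. Both were lower in the ureters than in any kidney, with log2 fold changes of -3.09 (standard error 0.831, adjusted p = 0.0242) and -3.59 (standard error 1.15, adjusted p = 0.0437) in edgeR. Gdf1, Gdf5 and Gdf9 did not pass. Gdf1 shares a transcript with a neighbouring gene, so its value is uncertain.

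Inhba, the activin beta A subunit, was scarce in kidney, at 0.244 and 0.239 TPM in WT and 0.237 and 0.268 TPM in Ahnak KO. It was at 1.55 TPM in WT ureter and 0.826 TPM in Ahnak KO ureter, above every kidney, a 6.02-fold difference (log2 2.59, standard error 0.374, adjusted p = 0.00226 from edgeR). Inha, the inhibin alpha subunit and the most abundant of the 5 subunits, was at 29.6 and 26.0 TPM in WT kidneys, 20.8 and 27.4 TPM in Ahnak KO kidneys, 26.7 TPM in WT ureter and 11.4 TPM in Ahnak KO ureter. Its tissues overlapped and it did not pass, nor did Inhbb and Inhbc.

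The type I receptors did not share a direction. Bmpr1b, which binds GDF and BMP ligands, was at 10.1 and 12.2 TPM in WT kidneys, 13.3 and 10.5 TPM in Ahnak KO kidneys, 2.71 TPM in WT ureter and 1.63 TPM in Ahnak KO ureter. It was 4.04-fold higher in kidney (log2 ureter over kidney -2.01, standard error 0.234, adjusted p = 0.000929 from edgeR), with a wide gap between the groups. Bmpr1a, the broadly used BMP receptor, was at 81.7 to 91.5 TPM in kidneys and at 69.7 and 71.7 TPM in the WT and Ahnak KO ureters, and its log2 fold change of 0.11 did not pass. Acvr1b, the activin type I receptor, was at 13.4 and 16.0 TPM in WT kidneys, 14.5 and 11.6 TPM in Ahnak KO kidneys, 26.3 TPM in WT ureter and 21.3 TPM in Ahnak KO ureter. Both ureters exceeded every kidney, and it was 2.23-fold higher in ureter (log2 1.16, standard error 0.140, adjusted p = 0.00109 from edgeR). Acvrl1, an endothelial receptor, was called with a log2 fold change of 0.47 (adjusted p = 0.0114 from edgeR), but its TPM overlapped between tissues and on log2(FPKM + 1) limma gave an adjusted p of 0.356. Tgfbr1 narrowly missed, with a log2 fold change of -0.30 (adjusted p = 0.0504 from edgeR).

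Among type II receptors, Acvr2b, which binds activins, several GDFs and Bmp3, was at 13.9 and 17.8 TPM in WT kidneys, 16.0 and 13.4 TPM in Ahnak KO kidneys, 1.5 TPM in WT ureter and 3.07 TPM in Ahnak KO ureter. Kidneys were 5.26-fold higher (log2 ureter over kidney -2.40, standard error 0.327, adjusted p = 0.00178 from edgeR), and every kidney was above both ureters. Acvr2a, Bmpr2 and Tgfbr2 did not pass. Tgfbr2, the TGF-beta type II receptor, was at 50.3 and 40.7 TPM in WT kidneys, 50.1 and 43.7 TPM in Ahnak KO kidneys, 71.4 TPM in WT ureter and 31.4 TPM in Ahnak KO ureter. In TPM its 2 ureters lay on opposite sides of the kidneys. On counts scaled by library size and TMM factor (CPM), the Ahnak KO ureter was at 97.7, inside the kidney range of 89.8 to 110.8. Only the WT ureter, at 194.1 CPM, lay outside that range. The co-receptor Tgfbr3 (betaglycan), which presents Tgfb2 and binds inhibin, was at 12.4 and 11.7 TPM in WT kidneys, 16.9 and 15.5 TPM in Ahnak KO kidneys, 25.9 TPM in WT ureter and 36.4 TPM in Ahnak KO ureter. It was 2.88-fold higher in ureter (log2 1.52, standard error 0.0980, adjusted p = 8.70e-05 from edgeR), with no overlap.

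**Figure D3:**
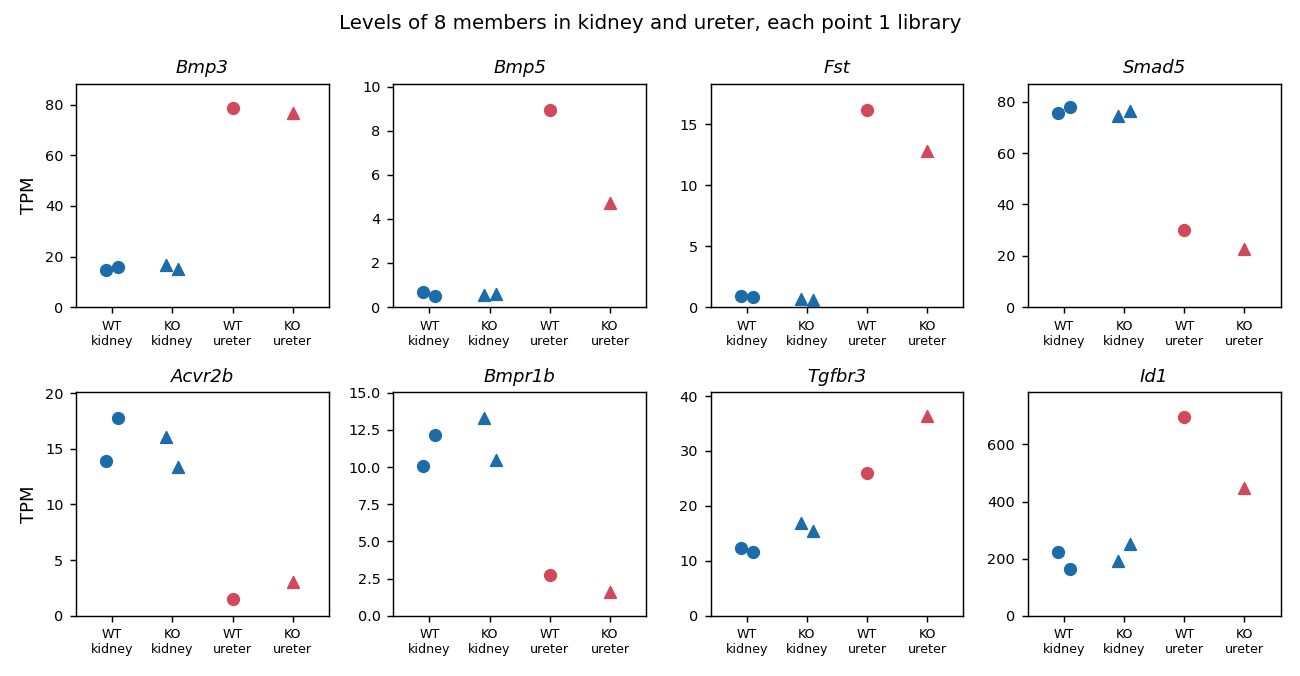
TPM of 8 members, each point 1 library, with WT kidneys, Ahnak KO kidneys, WT ureter and Ahnak KO ureter from left to right in each panel and axes starting at 0. Bmp3, Bmp5, Fst, Tgfbr3 and Id1 were higher in both ureters than in all 4 kidneys, and Smad5, Acvr2b and Bmpr1b were lower.

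Smad5, the most abundant kidney SMAD among those that carry BMP signals, was at 75.8 and 77.9 TPM in WT kidneys, 74.4 and 76.4 TPM in Ahnak KO kidneys, 30.1 TPM in WT ureter and 22.8 TPM in Ahnak KO ureter. The kidneys were tightly grouped and 2.27-fold higher (log2 ureter over kidney -1.18, standard error 0.112, adjusted p = 0.000406 from edgeR). Smad1, which acts in the same step, was called slightly higher in ureter (log2 0.38, adjusted p = 0.0375 from edgeR), at 27.2 to 31.8 TPM in kidneys and 27.0 and 32.4 TPM in ureters. Of the SMADs that carry TGF-beta signals, Smad2 was called higher in ureter (log2 0.68, adjusted p = 0.00336 from edgeR), but limma on log2(FPKM + 1) did not call it (log2 0.35, adjusted p = 0.0702). Smad3 was at 41.5 to 52.5 TPM in kidneys and 46.4 and 34.6 TPM in ureters and did not pass. The shared partner Smad4 was at 58.8 to 62.6 TPM in kidneys and 46.0 and 44.9 TPM in ureters, and its log2 fold change on TMM-scaled counts was -0.02. The inhibitory Smad6 was at 18.9 and 23.2 TPM in WT kidneys, 19.9 and 16.2 TPM in Ahnak KO kidneys, 27.2 TPM in WT ureter and 19.1 TPM in Ahnak KO ureter. Its tissues overlapped in TPM, but it was called higher in ureter from the counts (log2 0.62, adjusted p = 0.0144 from edgeR). Smad7 and Smad9 did not pass.

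The Id genes code for inhibitors of bHLH transcription factors, and Id1, Id2 and Id3 had the highest levels of the set in every library. Id1 was at 224 and 165 TPM in WT kidneys, 193 and 252 TPM in Ahnak KO kidneys, 698 TPM in WT ureter and 448 TPM in Ahnak KO ureter. Both ureters were above every kidney, by 3.53-fold in the fit (log2 1.82, standard error 0.210, adjusted p = 0.00089 from edgeR). Id2 was at 396 and 408 TPM in WT kidneys, 482 and 420 TPM in Ahnak KO kidneys, 643 TPM in WT ureter and 489 TPM in Ahnak KO ureter. In TPM the Ahnak KO ureter lay just above the highest kidney. On TMM-scaled counts the log2 difference was 0.79 (standard error 0.119, adjusted p = 0.00275 from edgeR). Id3, the most abundant member in kidney, was at 557 and 551 TPM in WT kidneys, 542 and 529 TPM in Ahnak KO kidneys, 499 TPM in WT ureter and 344 TPM in Ahnak KO ureter. It did not pass, with a log2 fold change of -0.01 on TMM-scaled counts. Id4 did not pass either. So 2 of 4 Id genes were called higher in ureter and none was called higher in kidney, where 21.4% and 23.7% of all genes tested were.

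Of the 5 secreted antagonists, 1 was called higher in ureter and 2 in kidney, where 21.4% and 23.7% of all genes tested were. Fst (follistatin), which binds activins and some BMPs, was at 0.886 and 0.786 TPM in WT kidneys, 0.671 and 0.613 TPM in Ahnak KO kidneys, 16.2 TPM in WT ureter and 12.8 TPM in Ahnak KO ureter. It was 24.4-fold higher in ureter (log2 4.61, standard error 0.195, adjusted p = 2.13e-05 from edgeR), with the ureters far above the kidneys. Grem1, a BMP antagonist, was at 0.559 and 0.215 TPM in WT kidneys, 0.698 and 0.255 TPM in Ahnak KO kidneys and at 0 counts in both ureters. Against a limit of 3 counts in each library it was at least 3.34-fold higher in kidney, and its adjusted p of 0.0328 from edgeR was lost under 7 of the 13 alternatives that tested it. Chrd (adjusted p = 0.0534) and Nog (adjusted p = 0.899) did not pass in edgeR, and neither exceeded 6 TPM in any library.

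Some calls between tissues rested on single libraries or on the scale. Tgfb1 lost its call without either Ahnak KO kidney, without WT kidney replicate 2 or without the Ahnak KO ureter, with adjusted p from 0.072 to 0.275 in edgeR. Smad1 lost it without the same 4 libraries (adjusted p from 0.0861 to 0.299), and on log2(FPKM + 1) limma gave it 0.574. Acvrl1 (adjusted p = 0.0943) and Smad6 (adjusted p = 0.0812) lost theirs in edgeR without the WT ureter. Among the scarce ligands, Bmp8a lost its call without either ureter or without WT kidney replicate 1 (adjusted p from 0.0507 to 0.152 in edgeR). Gdf11 did so without the Ahnak KO ureter (adjusted p = 0.102) or WT kidney replicate 2 (adjusted p = 0.0559). Gdf15 lost it without the Ahnak KO ureter or any 1 kidney except Ahnak KO replicate 1 (adjusted p from 0.0505 to 0.0621), and Gdf7 without the Ahnak KO ureter or any 1 kidney (adjusted p from 0.0567 to 0.12). Grem1 lost it without any 1 library except Ahnak KO kidney replicate 2 (adjusted p from 0.0516 to 0.0946 in edgeR). In the Ahnak KO libraries alone, Inhba (adjusted p = 0.0519), Bmp8b (0.0672) and Bmp7 (0.0598) lost their calls in edgeR. On log2(FPKM + 1), limma gave Tgfb1 an adjusted p of 0.124 and Smad6 one of 0.123. The directions were unchanged in all these fits.

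Other genes of the pathway were described by lists that hold no test of their own. Of 29 further extracellular modulators tested, 13 were higher in ureter and 3 in kidney in edgeR, with a median log2 fold change of 0.43 beside -0.08 for all genes, of which 21.4% were higher in ureter and 23.7% in kidney. The proteoglycan Dcn, which binds TGF-beta, had a log2 fold change of 5.11, and the latent TGF-beta binding protein Ltbp2 one of 4.23. Sostdc1, a kidney BMP and Wnt antagonist, was at 109 to 129 TPM in kidneys and at 1.33 and 0.529 TPM in the WT and Ahnak KO ureters (log2 -6.64, adjusted p = 1.59e-05 from edgeR). Its relative Sost was also higher in kidney, with a log2 fold change of -3.43. Among 3 tested ligands outside the set, Nodal and Amh were called higher in kidney and were at 0 counts in both ureters. Both were scarce in kidneys too, at 0.298 to 0.612 TPM for Nodal and 0.227 to 0.572 TPM for Amh. Of 15 regulators inside the cell, 4 were higher in ureter, led by the TGF-beta feedback gene Pmepa1 (log2 1.34) and the corepressor Tgif1 (log2 0.69), and 3 were higher in kidney, led by Tgif2 (log2 -1.10) and the kinase Map3k7 (log2 -0.58), counts near those shares of all genes.

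Of 14 genes listed here as BMP responses, 5 of which belong to the set, 8 were higher in ureter and 2 in kidney in edgeR. The median log2 fold change of the list was 0.70, and 21.4% and 23.7% of all genes tested were called in those directions. The 8 included the members Id1, Id2 and Smad6. Those with the widest difference were the homeobox gene Msx2 (log2 6.02) and Tbx18 (log2 5.29), a marker of ureteric mesenchyme, while Runx2 (log2 -2.83) and Hey1 (log2 -1.37) were higher in kidney. Of 12 TGF-beta response genes, 9 were higher in ureter, led by Postn (log2 4.33) and Ltbp2, and Tgfbi was higher in kidney (log2 -0.63). The median of that list was 2.56. Acta2 and Tagln are in both that list and the smooth muscle markers, whose summed TPM moved with tissue as given above. The part of cell makeup in these tissue differences was not tested.

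No member passed between the kidneys labelled Ahnak KO and WT, in which Ahnak RNA itself did not pass (log2 -0.47, adjusted p = 1.0 from edgeR). Of 52 members tested between Ahnak KO and WT kidneys, 0 had an adjusted p under 0.05 in edgeR (2 of 16481 genes did, 0.0121%). DESeq2 and limma also called 0 members. Over all genes DESeq2 called 25 higher and 21 lower of 19056, and limma called 0 of 13603. At an unadjusted p under 0.05 in edgeR, 2 members were higher in Ahnak KO (0.795% of all genes) and 0 were lower (0.582% of all genes). The median log2 fold change was 0.03, and values ran from -0.60 for Gdf5 to 0.71 for Gdf15. The libraries of the genotypes did not overlap for 10 members higher in Ahnak KO and 5 lower, where 12.8% and 13.5% of all genes did not overlap.

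The 2 members were receptors. Tgfbr3 was at 12.4 and 11.7 TPM in WT kidneys and 16.9 and 15.5 TPM in Ahnak KO kidneys (log2 0.46, standard error 0.125, adjusted p = 1.0 from edgeR). Bmpr2, the BMP type II receptor, was at 29.6 and 30.2 TPM in WT kidneys and 36.8 and 32.8 TPM in Ahnak KO kidneys (log2 0.25, standard error 0.0974, adjusted p = 1.0 from edgeR). Both Ahnak KO kidneys were above both WT kidneys for these genes. Without Ahnak KO kidney replicate 1, the library with Xist, the log2 values were 0.42 and 0.19. In the pathway lists, 0 genes passed in kidney, and Ctgf, a TGF-beta response gene, was at 42.5 and 46.4 TPM in WT and 72.3 and 82.3 TPM in Ahnak KO kidneys (log2 0.83, adjusted p = 0.569 from edgeR), named here after its value was seen.

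**Figure D4:**
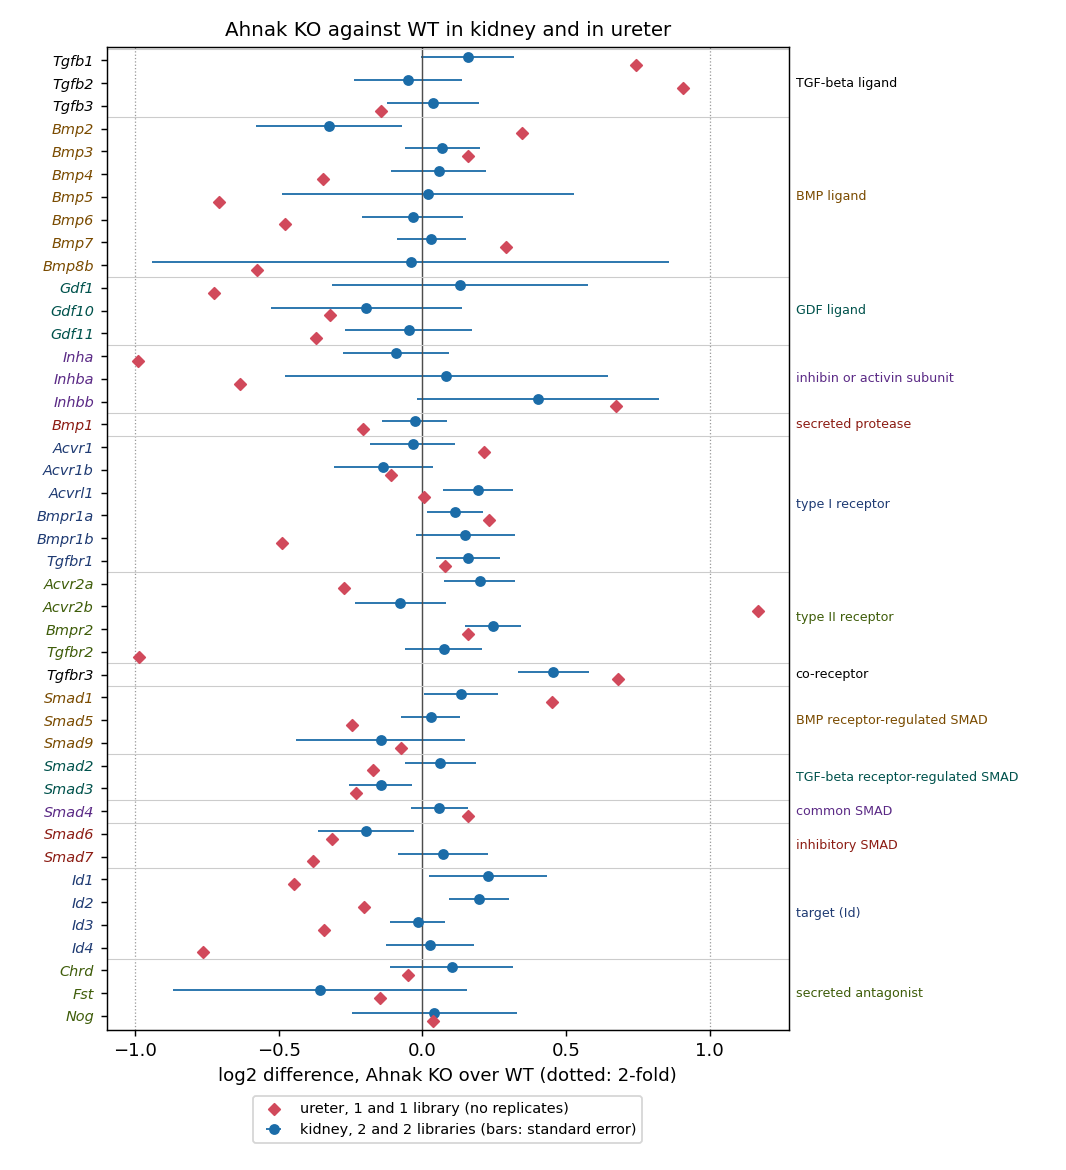
Log2 difference of Ahnak KO over WT for 43 members with at least 100 counts in a ureter library, in order of role. Blue points with standard errors are kidneys (2 and 2 libraries) and red diamonds are the single pair of ureters. Kidney points stay within the dotted 2-fold lines, and Acvr2b is the only diamond outside them.

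The ureters could be compared only as 1 library against 1, without a test. Of 51 members that reached 10 counts in either ureter, 2 were more than 2-fold higher in the Ahnak KO ureter (4.50% of all genes) and 1 was more than 2-fold lower (5.75% of all genes). Values are log2 ratios of CPM + 0.5, where CPM is the count scaled by library size and TMM factor. The members' median was -0.17, beside -0.02 for all genes, and 31 of 51 were lower in the Ahnak KO ureter. The share of all genes that were lower is not given here, so that count has no measure beside it. Among the members all 4 Id genes were lower, from -0.20 for Id2 to -0.76 for Id4, with Id1 at -0.45 and Id3 at -0.34. For Id1, kidneys of the same genotype differed about as much, at 97.1 and 71.7 CPM in WT and 83.7 and 113.6 CPM in Ahnak KO. The other Id genes differed less between kidneys of the same genotype than between the ureters. Kidney replicates do not measure the spread between ureters, so these comparisons cannot tie the ureter differences to genotype.

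Acvr2b had 472 counts in WT ureter and 633 in Ahnak KO ureter, a log2 ratio of 1.17. With library size as the only scaling it was 0.98, and from FPKM 0.93, under 2-fold in both. The library-size value includes the added 0.5 CPM. In TPM, with nothing added, Acvr2b was at 1.50 in WT and 3.07 in Ahnak KO ureter, just over 2-fold higher. Gdf5, a joint-forming GDF, had 0 counts in WT and 21 in Ahnak KO ureter, at least 12.1-fold higher against 3 counts. Gdf6, its close relative, had 54 counts in WT and 0 in Ahnak KO ureter, at least 10.4-fold lower, and these opposite values rest on few counts. On CPM + 0.5 with TMM factors, Tgfbr2 (-0.99) and Inha (-0.99) lay just inside 2-fold, with Gdf1 (-0.73) and Bmp5 (-0.71) further in. In the other direction were Tgfb2 (0.91), Tgfb1 (0.74) and Tgfbr3 (0.68). In TPM, Tgfbr2 was at 71.4 in WT and 31.4 in Ahnak KO ureter, and Inha at 26.7 and 11.4. On that scale both were more than 2-fold lower in the Ahnak KO ureter. The ureters also differed in summed striated muscle markers (492 TPM in WT and 184 TPM in Ahnak KO), in smooth muscle markers and in Rn45s, and their part in these values was not tested.

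Whether the genotype difference varied between tissues was tested with an interaction term, in which the lone ureter libraries are assumed to vary like the kidneys. Of 54 members tested, 0 passed an adjusted p of 0.05 in edgeR (0.108% of all genes did), with 0.196 the lowest. At an unadjusted p under 0.05, 8 members were found, where 12.4% of all genes were, among them Tgfb2, Gdf5, Gdf15, Inha, Acvr2b, Tgfbr2 and Id4. DESeq2 called Acvr2b (log2 1.30, standard error 0.342, adjusted p = 0.00981) and Tgfbr2 (log2 -1.06, standard error 0.274, adjusted p = 0.0084), and over all genes it called 204 higher and 287 lower (2.93%). In kidneys these 2 receptors had log2 fold changes of -0.08 and 0.07, and in the ureters log2 ratios of 1.17 and -0.99.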

How the data were processed

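The authors deposited, for 24532 genes in 6 libraries, an estimated count given as a whole number and not normalized, with FPKM and TPM that the authors computed from the same reads. The submitters' processing notes name Trimmomatic 0.38, HISAT2 2.1.0, StringTie 1.3.4b and mm10, whereas the study's methods name Cutadapt, STAR, Cufflinks and GRCm39, and which of these made the table is not stated. The library kit was stranded. Because counts are estimates, a 0 there does not show that no read was sequenced.

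The quasi-likelihood test of edgeR 4.0.16 (R 4.3.3) was applied after TMM scaling and filterByExpr, with Benjamini-Hochberg adjustment over all genes tested. Tissue was tested over 6 libraries with genotype as a second term (3 residual degrees of freedom), and genotype over the 4 kidneys (2 residual degrees of freedom). Standard errors were approximated from the size of the log2 fold change and the square root of F. Limits of 3 counts cover counting error only, and on the TMM scale of the folds printed against them they stood for 0.0509 CPM (Gdf5), 0.0883 CPM (Gdf6) and 0.101 CPM (Grem1). Alternatives used DESeq2 1.42.0, limma 3.58.1 on log2(FPKM + 1) or log2(FPKM + 0.1), other scalings and filters, and each library left out in turn. The fitting code was tested on simulated data. Values are named for members past the tissue threshold with at least a 2-fold change, the highest member of each role, kidney p under 0.05, and ureter ratios over 2-fold with at least 100 counts, for the 2 widest genes in each direction of each pathway list, and others are given by range or when they bear on a named result. The members and lists were chosen with earlier results of these data known. RefSeq promoter windows were matched by gene number. Python 3.11.15 with pandas 2.3.3 and matplotlib 3.10.9 did the rest. The values of 1 member are not reported here, although counts over the set include it.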

Additional observations from a re-analysis of the deposited data

How the results depend on the processing

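Of the members called between tissues, Tgfb3, Bmp2, Bmp3, Bmp5, Gdf10, Acvr1b, Bmpr1b, Acvr2b, Tgfbr3, Smad5, Id1, Id2 and Fst kept their call and direction under all 16 alternatives. The count higher in ureter fell from 18 to 11 on both log2(FPKM + 1) and log2(FPKM + 0.1). With 1 library left out it ran from 16 to 18, and the count higher in kidney ran from 5, without WT kidney replicate 2, to 8, against 9 with all libraries. The cause was not tested. No called member reversed. Kidney counts of 0 held under every alternative with all 4 kidneys, including a replicate block on the labels' numbers (0 members higher, 0 lower). That block called 0 of all 16481 genes, and both limma fits called 0 of 13603. A count of 0 members therefore says little in these fits. Deviations of same-numbered kidneys correlated at -0.193, so a crossed block was added after the data were seen. It also called 0 members, and of all 16481 genes 0 higher and 1 lower. A replicate block on numbers shared in the names of 4 libraries, also added later, called 13 members higher in ureter and 6 in kidney. Of all 16509 genes that fit called 2540 higher in ureter and 2301 in kidney. The interaction count rose from 0 to 1 higher and 1 lower with DESeq2. In ureter, where 2 members were over 2-fold higher and 1 lower, library size alone gave 1 higher and 3 lower and moved the median of all genes to -0.20. From FPKM + 0.1 it was 1 higher and 5 lower, with that median at -0.22. A pseudocount of 0.1 CPM gave 4 lower, and a minimum of 50 counts gave 1 higher. With 1 ureter library per genotype, no spread can be given there, and differences under the spread of 2 kidneys a group were not detectable.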
